A study of Homo sapiens with 12 samples.

Results

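C3orf62, CTC1, FSD2 and AHNAK2 are 4 of the 27011 genes counted by RNA-seq and by ribosome profiling (Ribo-seq) in human embryonic kidney HEK293T cells of 3 genotypes. They were chosen from these measured values, as genes whose ribosome footprint counts differed between genotypes with little difference in mRNA. Their own levels and fold changes are therefore a description with no test. The choice did not describe all 4 equally well. Footprints of AHNAK2 were lower, not higher, in both knockouts, and the mRNA of CTC1 was higher and that of FSD2 lower in 4EHP-null cells.

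The genotypes were wild type (WT), a line labelled as lacking 4EHP (4EHP-null) and a line labelled as lacking GIGYF1 and GIGYF2 (GIGYF1/2-null). Each was untreated, was harvested 24 h after plating on 15 cm dishes, and gave 2 RNA-seq and 2 Ribo-seq libraries, described as biological replicates. The labels do not say whether each null line was 1 clone or which cultures the replicates came from, so each p-value reflects only how much these libraries vary. Both knockouts were compared with the same WT libraries.

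4EHP, encoded by EIF4E2, binds the mRNA cap without recruiting the factors that start translation, and GIGYF1 and GIGYF2 are scaffold proteins that bind it. Together they repress the translation of selected mRNAs and promote their decay. Ribo-seq sequences the RNA stretches that ribosomes shield from nuclease, so a footprint count set against the mRNA count of the same gene is read as translation efficiency (TE). Structured non-coding RNA fragments of similar size can also enter such libraries.

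Library totals ran from 26143118 to 38175701 counts in RNA-seq and from 6536493 to 10816080 in Ribo-seq, and levels are given as CPM, the count scaled to a common library size within each assay. EIF4E2 mRNA was 123 and 123 CPM in WT, 51.0 and 46.7 CPM in 4EHP-null, and 131 and 137 CPM in GIGYF1/2-null libraries. GIGYF1 mRNA was 41.2 and 40.8 CPM in WT against 22.4 and 26.0 CPM in GIGYF1/2-null libraries, while GIGYF2 mRNA, at 81.2 and 66.1 CPM in WT, was 96.7 and 81.8 CPM there. GIGYF1 footprints were 8.69 and 6.72 CPM in WT and 1.70 and 2.74 CPM in GIGYF1/2-null libraries. Their log2 change was -1.73 ± 0.29 (adjusted p = 0.012), and -1.55 without WT replicate 1. GIGYF2 footprints were 90.8 and 63.9 CPM in WT and 81.6 and 51.7 CPM in GIGYF1/2-null libraries, with overlapping ranges. The GIGYF2 changes there, 0.28 ± 0.11 in mRNA (adjusted p = 0.124, and 0.0418 with no filter) and -0.21 ± 0.22 in footprints (adjusted p = 0.671), run against the label in mRNA and give no call in footprints, so absence of GIGYF2 is not seen in these counts, and GIGYF1/2-null is used only as a name. Counts over a whole gene do not show whether its protein was made. Of 7 HEK293T and embryonic kidney markers, 7 reached 1 CPM in WT and GIGYF1/2-null cells and 6 in 4EHP-null cells, where LHX1 fell under it. Of 7 striated muscle markers 2 reached 1 CPM, with MYH7 and TNNT2 at 0 in every library. Fewer cells of a type and less RNA per cell cannot be told apart in these bulk libraries.

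C3orf62 encodes a protein of unassigned function and showed the widest gap between footprints and mRNA. Its mRNA was 8.98 and 7.69 CPM in WT, 8.74 and 8.72 CPM in 4EHP-null, and 7.85 and 7.75 CPM in GIGYF1/2-null libraries. The 6 mRNA values lay close together, and the ranges of WT and both knockouts overlapped. Its footprints were 335 and 352 CPM in WT, 1901 and 1523 CPM in 4EHP-null, and 880 and 711 CPM in GIGYF1/2-null libraries. All 4 knockout libraries lay above both WT libraries, and both 4EHP-null libraries above both GIGYF1/2-null libraries. On the log2 scale the footprint change was 2.32 ± 0.17 (SE), or 4.98-fold, in 4EHP-null and 1.21 ± 0.17, or 2.32-fold, in GIGYF1/2-null cells. The mRNA changes were 0.07 ± 0.14 and -0.09 ± 0.14. The footprint change ranked 36 of 14722 tested genes from the top in 4EHP-null cells and 154 in GIGYF1/2-null cells.

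CTC1 encodes the largest subunit of the CST complex, which binds single-stranded DNA and assists the copying of telomere ends. Its mRNA was 14.7 and 13.6 CPM in WT, 20.9 and 19.6 CPM in 4EHP-null, and 19.0 and 18.5 CPM in GIGYF1/2-null libraries. Every knockout library lay above both WT libraries in mRNA as well, with log2 changes of 0.52 ± 0.11 and 0.41 ± 0.11. Its footprints were 65.1 and 56.9 CPM in WT, 400 and 295 CPM in 4EHP-null, and 112 and 131 CPM in GIGYF1/2-null libraries. The 3 genotypes did not overlap in footprints. The footprint change was 2.51 ± 0.17, or 5.71-fold, in 4EHP-null and 1.00 ± 0.17, or 2.00-fold, in GIGYF1/2-null cells, with ranks of 32 and 289 from the top.

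FSD2 encodes a protein with fibronectin type III and SPRY domains that is known mainly from striated muscle. Its mRNA was 9.05 and 7.72 CPM in WT, 4.55 and 4.84 CPM in 4EHP-null, and 6.33 and 8.36 CPM in GIGYF1/2-null libraries. Both 4EHP-null libraries lay below all others, and the GIGYF1/2-null range overlapped WT. Its footprints were 16.4 and 23.6 CPM in WT, 35.9 and 39.9 CPM in 4EHP-null, and 22.6 and 30.5 CPM in GIGYF1/2-null libraries. Footprints and mRNA thus lay on opposite sides of WT in 4EHP-null cells, at 0.91 ± 0.20 and -0.83 ± 0.18 on the log2 scale. The GIGYF1/2-null changes were 0.40 ± 0.20 and -0.18 ± 0.17, and footprints overlapped WT. That footprint value became 0.19 when WT replicate 1 was left out, 0.16 when GIGYF1/2-null replicate 2 was, and 0.70 when WT replicate 2 was.

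AHNAK2 encodes a very large scaffold protein with a PDZ domain, a relative of AHNAK. Its mRNA was 4.71 and 4.73 CPM in WT, 3.94 and 4.19 CPM in 4EHP-null, and 4.37 and 4.47 CPM in GIGYF1/2-null libraries. Its footprints were 9.997 and 15.1 CPM in WT, 1.89 and 2.73 CPM in 4EHP-null, and 6.79 and 8.67 CPM in GIGYF1/2-null libraries. The ranges of the 3 genotypes did not overlap in footprints or in mRNA, with WT highest and 4EHP-null lowest in both. The share of all genes whose ranges separate in this way was not computed, here or for the genes above. The footprint change was -2.45 ± 0.31, a 5.45-fold lower level, in 4EHP-null cells, and -0.71 ± 0.24 in GIGYF1/2-null cells, where it was -0.36 without WT replicate 2. The mRNA changes were -0.22 ± 0.17 and -0.09 ± 0.17, on 110 to 176 counts per library. They were not large beside their SE, so the order of the genotypes in mRNA is uncertain. These footprint levels rest on few counts, 69 and 160 in WT, 12 and 20 in 4EHP-null, and 56 and 98 in GIGYF1/2-null libraries, so the 4EHP-null level is the least precise of the set.

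**Figure D1:**
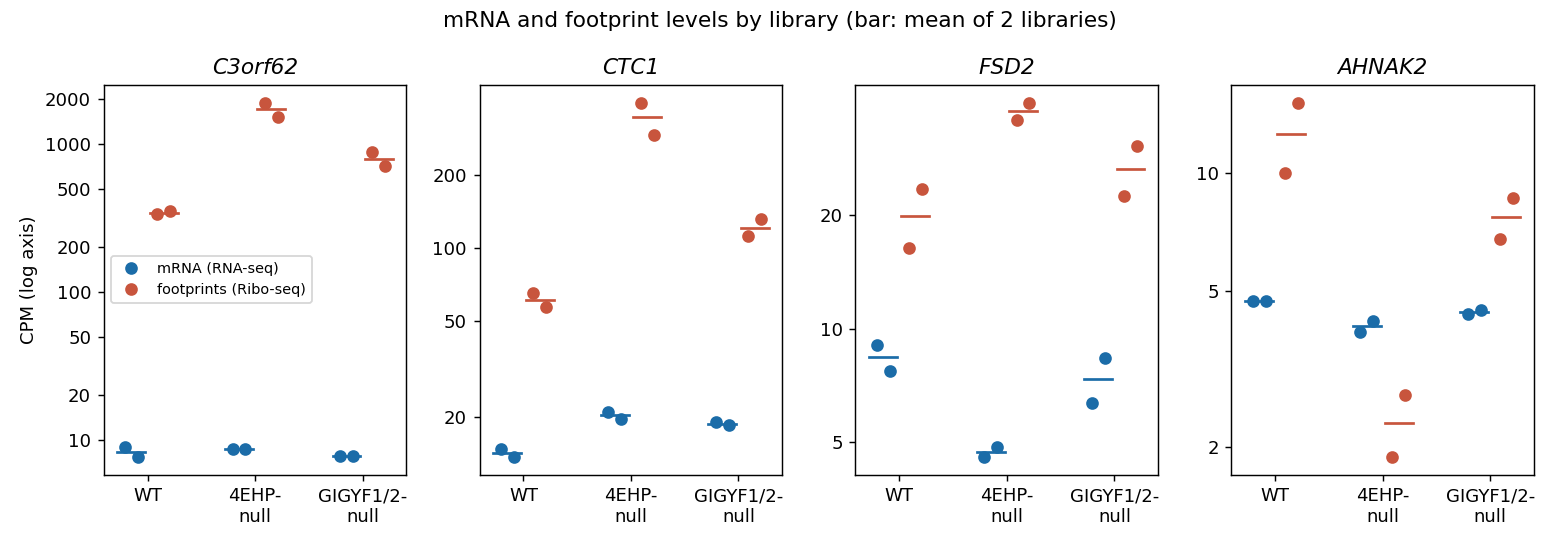
Level of each gene in each library, in CPM on a log axis that differs between panels, for mRNA (blue) and footprints (red). Points are libraries and bars the mean of 2. Footprints of C3orf62, CTC1 and FSD2 are highest in 4EHP-null cells, and those of AHNAK2 are lowest there, at 1.89 and 2.73 CPM.

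Expressed as TE, the change in footprints less the change in mRNA, the log2 differences in 4EHP-null cells were 2.25 ± 0.21 for C3orf62, 2.00 ± 0.20 for CTC1, 1.74 ± 0.28 for FSD2 and -2.24 ± 0.35 for AHNAK2. For GIGYF1/2-null cells they were 1.30 ± 0.21, 0.60 ± 0.20, 0.58 ± 0.27 and -0.62 ± 0.29 in the same order. The median TE change over the 13257 genes tested was -0.04 and -0.02. For all 4 genes, as counted, the GIGYF1/2-null value had the sign of the 4EHP-null value and a smaller size, a comparison in which both knockouts share the WT libraries. The FSD2 values here include any SCARNA15 counts, as described below. With those subtracted, the FSD2 footprint changes were -0.21 in 4EHP-null and 0.56 in GIGYF1/2-null cells, which do not keep this order. Set directly against each other, GIGYF1/2-null minus 4EHP-null, footprints differed by -1.11 ± 0.17 for C3orf62, -1.51 ± 0.17 for CTC1, -0.51 ± 0.19 for FSD2 and 1.74 ± 0.32 for AHNAK2.

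**Figure D2:**
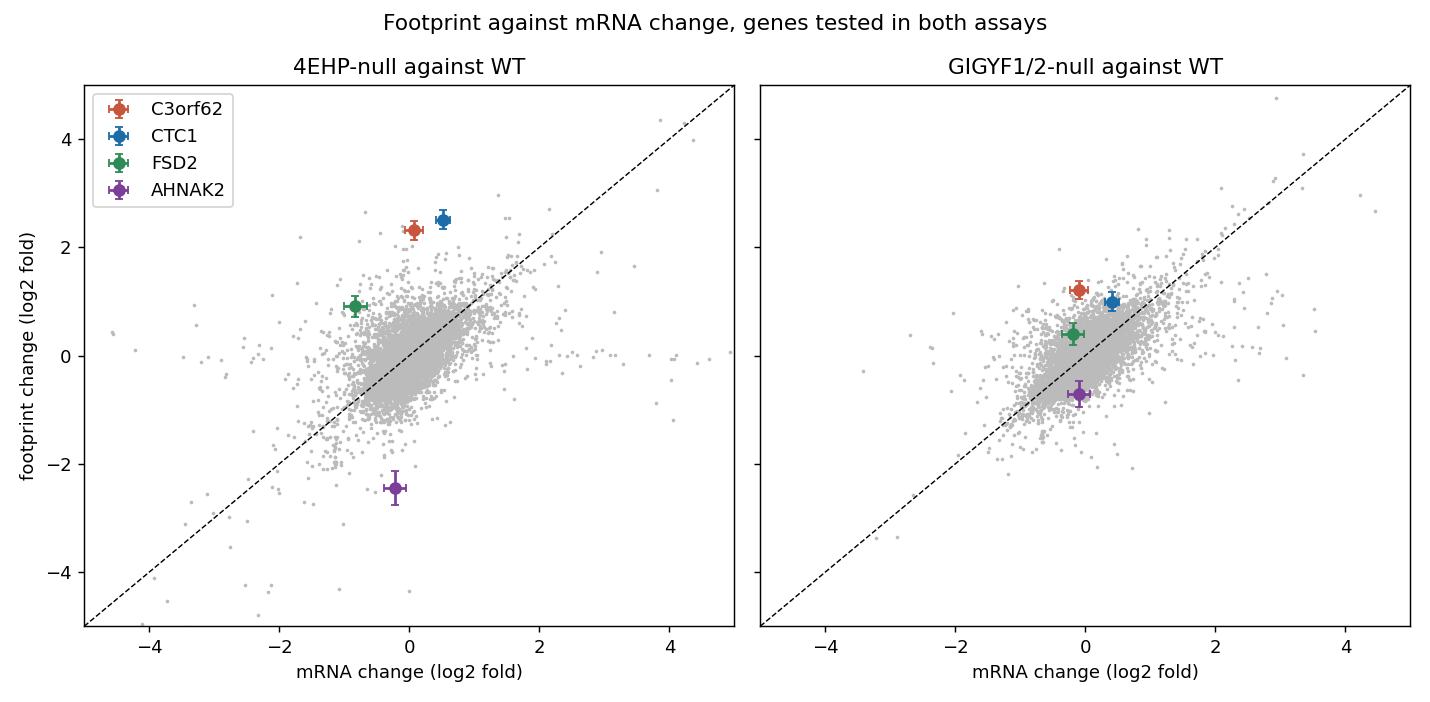
Footprint change (vertical, log2) against mRNA change (horizontal, log2) of 13257 genes tested in both assays (grey) for 4EHP-null (left) and GIGYF1/2-null cells (right). Error bars are SE, the dashed line marks equal change, and 18 and 4 genes lie outside the axes. C3orf62, CTC1 and FSD2 lie above the line and AHNAK2 below it in both panels.

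Of those 13257 genes, 389 passed the test for footprints in 4EHP-null cells, of which 52 were higher and 52 lower with no mRNA call. In GIGYF1/2-null cells 299 passed, of which 13 were higher and 13 lower with no mRNA call. A gene passed where the adjusted p of edgeR's quasi-likelihood test was under 0.05. Many more genes had an unadjusted p under 0.05 in that test. In footprints these were 2805 of 14722 in 4EHP-null and 2581 in GIGYF1/2-null cells. In mRNA they were 4269 and 3961 of 15637, and in TE 1022 and 586 of 13257. Counts at an unadjusted p given below for lists of genes are to be read against these. A missing mRNA call does not show that mRNA was unchanged.

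Per kilobase of the gene length in the deposited tables, the WT mRNA levels of C3orf62 and CTC1 were alike, at 2.32 ± 0.25 and 2.00 ± 0.10 CPM per kb (SD, n = 2). FSD2 stood at 1.28 ± 0.14 and AHNAK2 at 0.258 ± 0.001 CPM per kb. The WT footprint levels spread much more widely, at 95.7 ± 3.54 CPM per kb for C3orf62, 8.62 ± 0.819 for CTC1, 3.06 ± 0.778 for FSD2 and 0.686 ± 0.198 for AHNAK2. The order of the genes was the same in both assays. Their ratio of footprint CPM to mRNA CPM was high already in WT, at 41.2 for C3orf62, 4.31 for CTC1, 2.38 for FSD2 and 2.66 for AHNAK2, against a median of 0.715 over all genes tested. The C3orf62 ratio was above that of 99.02% of genes. In 4EHP-null cells the ratios were 196, 17.2, 8.07 and 0.567, so AHNAK2 went from above the median of all genes to below it. In GIGYF1/2-null cells they were 102, 6.49, 3.61 and 1.75. The C3orf62 ratios rest on footprint counts nearly equal to those of another gene, LOC100506127, as described below. The FSD2 ratios depend on counts of SCARNA15, a gene within its interval that is also described below. With those counts subtracted, FSD2 in WT stood at 8.26 and 7.95 CPM in footprints and 8.54 and 7.31 CPM in mRNA.

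The authors' deposited table of Ribo-seq changes lists C3orf62 at 2.37, CTC1 at 2.57 and FSD2 at 0.97 (log2) in 4EHP-null cells, and at 1.24, 1.03 and 0.44 in GIGYF1/2-null cells. The authors' deposited table of TE lists C3orf62 at 2.30 and 1.34 and CTC1 at 2.04 and 0.62. AHNAK2 is listed in none of the authors' deposited tables used here.

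The footprint counts of C3orf62 were nearly the same as those of a gene on chromosome 11, LOC100506127, named GVQW3 in RefSeq. C3orf62 had 2309 and 3726 counts in WT, 12073 and 11178 in 4EHP-null, and 7257 and 8041 in GIGYF1/2-null libraries. LOC100506127 had 2348 and 3806, 12138 and 11245, and 7337 and 8148 counts. The difference ran from 39 to 107 counts, and C3orf62 held between 97.9% and 99.46% of the LOC100506127 count in each library. The next nearest gene to C3orf62, ZNF436-AS1, differed by up to 0.78 on the log2 scale in a library, against 0.03 for LOC100506127. The RNA-seq counts of the pair did not match, at 265 and 286 against 309 and 505 in WT libraries and 286 and 229 against 333 and 325 in 4EHP-null libraries. The footprint change of LOC100506127 was 2.30 ± 0.17 in 4EHP-null and 1.20 ± 0.17 in GIGYF1/2-null cells. Whether the same reads were counted for both genes was not tested, so the C3orf62 footprint level is uncertain. LOC100506127 was singled out after its values were seen.

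FSD2 contains a small Cajal body RNA gene, SCARNA15, within its RefSeq interval. Small Cajal body RNAs (scaRNAs) guide chemical modification of spliceosomal RNAs and are not translated. FSD2 had 113 and 249 Ribo-seq counts in WT, 228 and 293 in 4EHP-null, and 186 and 345 in GIGYF1/2-null libraries. SCARNA15 had 56 and 165, 184 and 241, and 91 and 206 counts. The SCARNA15 count equalled 48.9% to 82.3% of the FSD2 count and was highest as a share in 4EHP-null cells, at 80.7% and 82.3%. In RNA-seq it equalled 1.57% to 6.29%. The FSD2 count less the SCARNA15 count was 57 and 84 in WT, 44 and 52 in 4EHP-null, and 95 and 139 in GIGYF1/2-null libraries. With this difference in place of the FSD2 count, a setting chosen after seeing the data, the footprint change of FSD2 became -0.21 ± 0.20 in 4EHP-null cells and 0.56 in GIGYF1/2-null cells, and its TE change in 4EHP-null cells 0.59 ± 0.26. Whether reads of SCARNA15 were also counted for FSD2 was not tested.

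The Ribo-seq change of SCARNA15 itself was 1.34 ± 0.28 on the log2 scale in 4EHP-null and 0.28 ± 0.28 in GIGYF1/2-null cells. Because its reads may be among those by which FSD2 was chosen, these values are a description with no test. The count tables hold 27 other scaRNA genes, of which 22 were tested. In 4EHP-null footprints 3.04% of the 14722 genes tested were called in either direction. Of the 22, 3 were called higher and 0 lower, namely SCARNA12, SCARNA9 and SCARNA9L. SCARNA9 and SCARNA9L changed almost alike, at 0.80 ± 0.18 and 0.81 ± 0.17, and may not be separate calls. Whether they shared reads was not tested. The median of the 22 was 0.78, against -0.004 for all genes. In GIGYF1/2-null cells, where 2.09% of genes were called, 0 of the 22 were called by edgeR, DESeq2 or limma-voom, 2 had an unadjusted p under 0.05, and their median was -0.14. SCARNA9 and SCARNA9L lost their calls without either WT replicate or without 4EHP-null replicate 1, and SCARNA12 without WT replicate 2 or 4EHP-null replicate 1. In 4EHP-null RNA-seq, where 13.1% of genes were called, 10 of the 27 were tested and their median was 0.71. There 2 were called higher and 0 lower, SCARNA10 at 3.46 ± 0.97 and SCARNA16 at 3.80 ± 0.94, while limma-voom called 0. In 4EHP-null TE the median of the 10 tested was 0.09, with 0 called by edgeR or limma-voom and 1 by DESeq2. The scaRNA lists were drawn up after the FSD2 values were seen. Of 24 tested protein-coding genes other than FSD2 that contain a scaRNA gene, 1 was called higher in 4EHP-null footprints and 0 lower. That gene was POLA1, whose product is the catalytic subunit of DNA polymerase alpha, at 1.01 ± 0.16 (adjusted p = 0.00708). POLA1 mRNA was also called higher in 4EHP-null cells, at 0.61 ± 0.09. In GIGYF1/2-null footprints 1 was called lower and 0 higher, the chromatin remodeller gene CHD4 at -1.50 ± 0.32. DESeq2 did not make this call. It was also lost with only the 2 genotypes compared and without WT replicate 1 or GIGYF1/2-null replicate 2. CHD4 mRNA was also called lower in GIGYF1/2-null cells, at -0.94 ± 0.16 (adjusted p = 0.0024).

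CTC1 contains 3 tRNA genes in its RefSeq interval, for threonine, serine and isoleucine, which have no rows of their own in the count tables. Its neighbour LINC00324, a long non-coding RNA gene, contains 4 tRNA genes. LINC00324 had 3429 and 5913 Ribo-seq counts in WT, 11685 and 5909 in 4EHP-null, and 3876 and 7522 in GIGYF1/2-null libraries, against 11 to 32 RNA-seq counts. At 1.32 ± 0.30 its footprint change in 4EHP-null cells passed the test (adjusted p = 0.0383), but it was 0.61 without 4EHP-null replicate 1 (adjusted p = 0.282), and the call was also lost without either WT replicate and in DESeq2 and limma-voom. Of 22 tested protein-coding genes other than CTC1 that contain a tRNA gene, 0 were called in 4EHP-null footprints by edgeR or limma-voom and 1 by DESeq2. An unadjusted p under 0.05 was reached by 6 of them, and by 2805 of all 14722 genes tested. The GIGYF1/2-null footprints gave 0 called higher and 1 lower, the transcription factor gene ELF1, at -0.76 ± 0.15, a call lost with only the 2 genotypes compared and without either WT replicate or GIGYF1/2-null replicate 2. Whether tRNA reads were counted for CTC1 was not tested. PFAS, a purine synthesis gene that overlaps the CTC1 interval, had footprint changes of 0.10 ± 0.20 and -0.51 ± 0.20, neither of which passed the test.

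**Figure D3:**
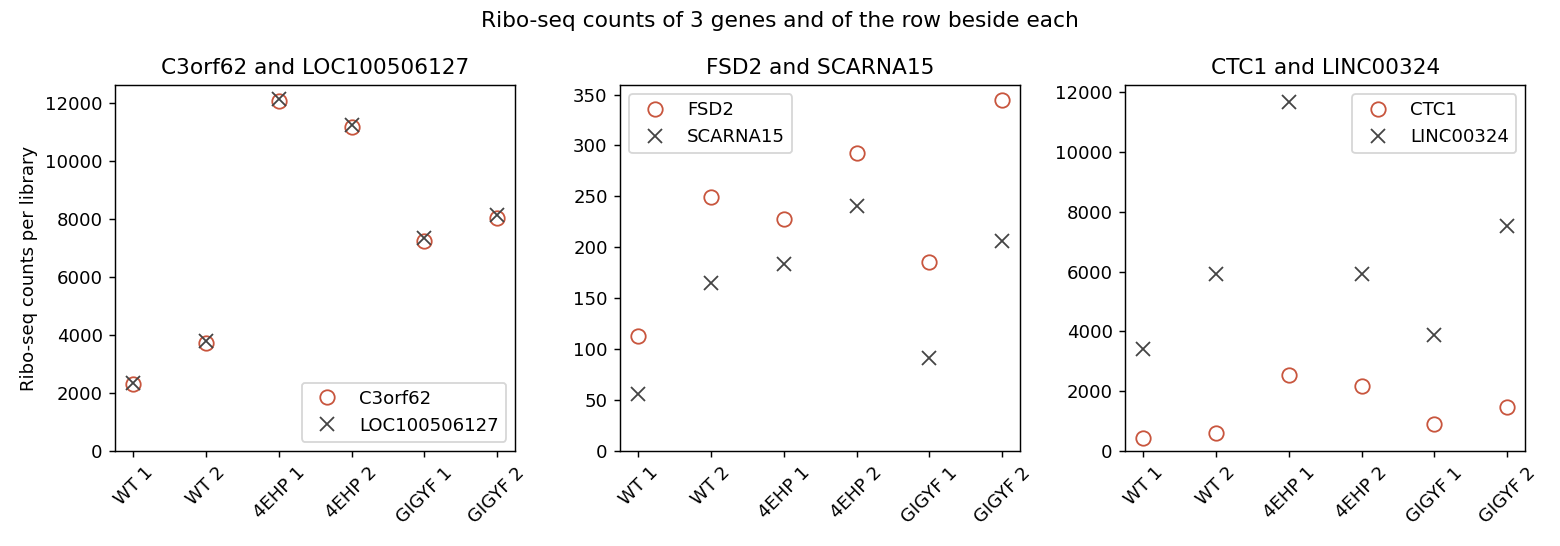
Ribo-seq counts per library (vertical) of C3orf62, FSD2 and CTC1 (circles), each with the gene named beside it (crosses), for the 6 Ribo-seq libraries (horizontal). The symbols of C3orf62 and LOC100506127 coincide, SCARNA15 stays below FSD2 by 44 to 139 counts, and LINC00324 is highest in 1 4EHP-null library, at 11685 counts.

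C3orf62 contains a microRNA gene, MIR4271, whose counts were near 0 in both assays. It had 0 counts in all 6 Ribo-seq libraries and 2 to 5 counts in each RNA-seq library. Its mature RNA, from the RefSeq table of build GRCh38.p14 at chr3:49274158-49274176 on the plus strand, has the sequence below, with the seed (bases 2 to 8) in capitals.
hsa-miR-4271: gGGGGAAGaaaaggugggg

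AHNAK2 contains no small RNA gene in the RefSeq gene table. PLD4, which overlaps its end, had at most 2 Ribo-seq counts in any library. USP4, a deubiquitinase gene whose end overlaps the start of C3orf62, had footprint levels of 24.3 ± 0.386, 28.6 ± 0.752 and 23.2 ± 0.874 CPM (SD, n = 2) in WT, 4EHP-null and GIGYF1/2-null cells. Its footprint changes of 0.23 ± 0.14 and -0.07 ± 0.14 did not pass the test. No source used here states whether counting took strand into account, so counts in overlapping stretches are uncertain.

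Among the 5 genes on each side of FSD2, whose own mRNA was lower in 4EHP-null cells, 5 of 10 fell there and 0 rose. Their median was -0.48, in a comparison in which 13.1% of 15637 genes tested were called. The 10 include SCARNA15, which lies within FSD2 and was not 1 of the 5. SNHG21, which was, overlaps FSD2. Whether reads of SCARNA15 or SNHG21 were also counted for FSD2 was not tested, so these 2 may not be separate from it. C15orf40 was at -0.66 ± 0.11 (adjusted p = 0.00216), the long non-coding RNA gene SNHG21, whose interval overlaps that of FSD2, at -0.80 ± 0.15 (adjusted p = 0.0041), and FAM103A1, which encodes a cofactor of the cap methyltransferase, at -0.40 ± 0.08 (adjusted p = 0.00622). FAM103A1 lost its call without any 1 of the 4 libraries compared, and SNHG21 without 4EHP-null replicate 1 (adjusted p = 0.052). For GIGYF1/2-null mRNA, where 11.9% of genes were called, 0 of the 10 were called by edgeR, DESeq2 or limma-voom, 1 had an unadjusted p under 0.05, and their median was 0.06.

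Around C3orf62, 3 of 10 neighbours rose in 4EHP-null mRNA and 1 fell. Of all genes tested in mRNA, 13.1% were called in 4EHP-null and 11.9% in GIGYF1/2-null cells. LAMB2, a laminin chain gene, was at 1.06 ± 0.11 (adjusted p = 6.908e-05) and also rose in GIGYF1/2-null cells, at 0.47 ± 0.11 (adjusted p = 0.0147, and 0.144 without WT replicate 1). USP19, a deubiquitinase gene, was at 0.53 ± 0.10 and TCTA at -0.57 ± 0.12, and both lost their calls without WT replicate 2. The footprints of LAMB2 rose with its mRNA in 4EHP-null cells, by 0.86 ± 0.14 (adjusted p = 0.00867), a call lost without either WT replicate or 4EHP-null replicate 2. Around CTC1, 1 of 10 neighbours fell in 4EHP-null mRNA, the ribosomal protein gene RPL26 at -0.40 ± 0.10 (adjusted p = 0.0238), a call lost without either WT replicate or 4EHP-null replicate 1. Around AHNAK2, 1 of 10 rose in each knockout, the Notch ligand gene JAG2, at 0.56 ± 0.11 and 0.54 ± 0.11, with calls that were lost without WT replicate 2 and, for 4EHP-null cells, without 4EHP-null replicate 1. These counts of 1 of 10 around CTC1 and AHNAK2 were near the share of all genes called and do not set either set of neighbours apart. In 4EHP-null footprints, where 3.04% of all genes tested were called, LINC00324, near CTC1, was also called, as given above. SCARNA15, which lies within FSD2 and is among its 10 neighbours, is described above with no test. CPEB1-AS1, an antisense RNA gene near FSD2, was at -1.05 ± 0.24 in 4EHP-null footprints. That call was lost without any 1 library compared and in DESeq2 and limma-voom.

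**Figure D4:**
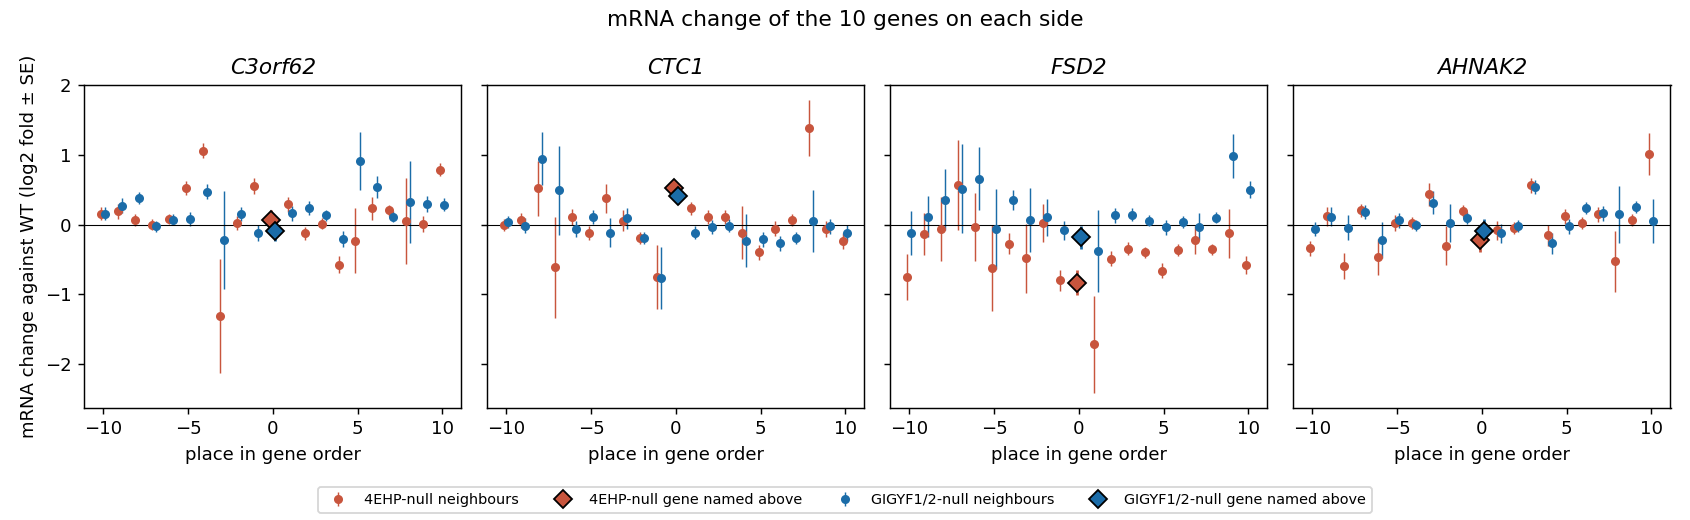
mRNA change against WT (vertical, log2 fold ± SE) of the 10 genes on each side that passed the low-count filter, by their place in gene order (horizontal), for 4EHP-null (red) and GIGYF1/2-null cells (blue). Diamonds are the gene named above each panel. The genes right of FSD2 lie below 0 in 4EHP-null cells, and 8 of its 20 neighbours were called lower and 0 higher. Of all genes tested, 13.1% were called there in either direction. Those 20 include SCARNA15 and SNHG21, whose intervals overlap that of FSD2.

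Among telomere genes no call was made in TE. In that readout, where 0.0905% of genes were called in 4EHP-null and 0.0453% in GIGYF1/2-null cells, 0 of 18 telomere genes were called by edgeR, DESeq2 or limma-voom, and 1 in each knockout had an unadjusted p under 0.05. Of 19 telomere genes other than CTC1, including its CST partners and DNA polymerase alpha, 1 rose and 1 fell in 4EHP-null mRNA, where 13.1% of all genes tested were called, so their share was near that of all genes. POLA1 rose, at 0.61 ± 0.09 (adjusted p = 0.00129). OBFC1, also called STN1, which encodes a CST subunit, fell, at -0.65 ± 0.12 (adjusted p = 0.00414). Its footprint change, -0.75 ± 0.25, did not pass the test (adjusted p = 0.138), though it did with no filter (adjusted p = 0.0234). TEN1, the smallest CST subunit, had changes of -0.27 ± 0.13 in mRNA and -0.58 ± 0.46 in footprints, and neither passed the test. In 4EHP-null footprints POLA1 was the only 1 of 18 telomere genes called, and that call was lost without WT replicate 2 (adjusted p = 0.0898) or 4EHP-null replicate 1 (adjusted p = 0.0861). In GIGYF1/2-null mRNA 3 of the 19 were called, against 11.9% of all genes. TERF1, a telomere-binding protein gene, rose by 0.50 ± 0.08, and POLA2 and POT1 fell, at -0.47 ± 0.08 and -0.83 ± 0.12. In GIGYF1/2-null footprints 0 of 18 were called by any of the 3 tools, and 4 had an unadjusted p under 0.05. The list median stayed between -0.10 and -0.04 in all 6 comparisons.

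AHNAK, the relative of AHNAK2, had footprint levels of 79.5 ± 15.8, 61.6 ± 4.22 and 51.8 ± 16.96 CPM (SD, n = 2) in WT, 4EHP-null and GIGYF1/2-null cells. Its footprint changes were -0.36 ± 0.21 (adjusted p = 0.372) and -0.62 ± 0.21 (adjusted p = 0.151, but 0.00505 with no filter and 0.0125 without GIGYF1/2-null replicate 1), and the values of AHNAK2 for the same comparisons were -2.45 and -0.71. AHNAK mRNA was at 0.01 ± 0.12 in 4EHP-null cells and was lower in GIGYF1/2-null cells, at -0.43 ± 0.12 (adjusted p = 0.0369), a call lost without WT replicate 1 (adjusted p = 0.309) or GIGYF1/2-null replicate 2 (adjusted p = 0.181). Of 5 genes of the AHNAK family and its partners, 0 were called in 4EHP-null mRNA by any of the 3 tools, with 2 at an unadjusted p under 0.05, and 0 of 4 in footprints, with 0 at that level. In GIGYF1/2-null mRNA, where 11.9% of all genes were called, AHNAK and 1 other of the 5 were called lower. That other was the annexin gene ANXA2, at -0.48 ± 0.08, which also fell in footprints, at -0.63 ± 0.14 (adjusted p = 0.0429), a footprint call lost under RLE scaling, with only the 2 genotypes compared, and without either WT replicate or GIGYF1/2-null replicate 2.

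Relatives of FSD2 and muscle genes gave at most 2 called genes per list in mRNA, where 13.1% of all genes were called in 4EHP-null and 11.9% in GIGYF1/2-null cells, and these counts do not set either list apart. Among 9 tested relatives of FSD2, most of them tripartite motif genes, TRIM9 rose in 4EHP-null mRNA, at 0.81 ± 0.12 (adjusted p = 0.000966), and MID2 fell, at -0.53 ± 0.13 (adjusted p = 0.021). MID2 lost its call without WT replicate 2 or 4EHP-null replicate 1. In GIGYF1/2-null mRNA TRIM46 rose, at 0.97 ± 0.28 (adjusted p = 0.0407), and lost its call in DESeq2 and without any library compared. Of the 8 relatives tested in footprints, 0 were called in either knockout by any of the 3 tools, and 2 in each had an unadjusted p under 0.05. Of 8 striated muscle genes tested in mRNA, 0 were called in 4EHP-null cells by any tool, with 1 at an unadjusted p under 0.05, and 1 rose in GIGYF1/2-null cells, the calcium release channel gene RYR2 at 1.02 ± 0.25 (adjusted p = 0.0194), which lost its call without either WT replicate or without GIGYF1/2-null replicate 2. Of the 5 tested in footprints, 0 were called by any tool and 0 had an unadjusted p under 0.05.

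Likeness of pattern was measured over the 12 libraries as the root-mean-square difference of log2 CPM, each taken relative to the WT mean of its assay, among 12492 genes. The gene most like C3orf62 was LOC100506127, at 0.23, whose first place restates the near-equal footprint counts given above. The small nucleolar RNA genes SNORD17, at 0.38, and SNORD19B, at 0.50, followed, against a median of 1.11 over all genes. The same 3 genes were most like CTC1, at 0.47, 0.49 and 0.51. SNORD17 footprints changed by 1.54 ± 0.16 and 1.15 ± 0.16 in the 2 knockouts with RNA-seq changes of -0.02 ± 0.18 and 0.17 ± 0.18. Genes most like FSD2 were MCMDC2, at 0.19, LILRB3, at 0.30, and DOC2A, at 0.30, and by correlation SCARNA15 was next after MCMDC2. Genes most like AHNAK2 were C17orf96, at 0.38, PDXP, at 0.44, and TMEM121, at 0.47, with 4EHP-null footprint changes of -1.83 ± 0.42, -1.43 ± 0.27 and -1.45 ± 0.30. Relative to the WT mean their 4EHP-null mRNA was lower too, at -0.39, -0.49 and -0.32 in log2 CPM. The 4EHP-null footprint counts were few, at 5 and 8, 31 and 35, and 12 and 14 in the same order. These genes were picked for their likeness, so their changes are a description with no test.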

How the data were processed

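Counts per gene were deposited by the authors as whole numbers, with no normalization, for 12 libraries. Bowtie2, TopHat2, edgeR and build hg19 are named in the submitters' processing notes. No version, counting tool, annotation or strand setting is given in those sources. The authors' deposited comparison tables give log2 changes, p-values, a TE ratio and a dispersion score per the file headers.

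The software was edgeR 4.0.16 with DESeq2 1.42.0 and limma 3.58.1 as alternatives, in R 4.3.3. The filterByExpr function kept 15637 genes in RNA-seq, 14722 in Ribo-seq and 13257 in both, and TMM factors were computed per assay. edgeR's quasi-likelihood F-test (two-sided, Benjamini-Hochberg adjusted p under 0.05 over all genes tested) was fitted with 1 spread for the 3 genotypes. TE was the interaction of assay and genotype over 12 libraries. Replicates varied with a common coefficient of 0.0862 (RNA-seq) and 0.119 (Ribo-seq). SE is the size of the log2 change divided by the root of F. The scripts were tested on simulated data.

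Gene order, nested genes and overlaps came from RefSeq tables of GRCh38.p14, another build than hg19, which matched 25532 genes (94.5%). No protein table was used here. Named genes were the 4 genes, up to 3 called genes per gene's 5 neighbours on each side or per list and comparison, and the 3 most alike genes, the latter with a mean log2 CPM of at least 1 in Ribo-seq. STN1, TEN1 and AHNAK were always given. The 4 genes and the lists were chosen with earlier results of these data known. Leukocyte, fibroblast and epidermal marker lists had 1 of 6, 1 of 5 and 2 of 4 genes at 1 CPM in WT. The alternatives were RLE scaling, no filter, a stricter filter (1 CPM in 4 libraries), DESeq2, limma-voom, only the 2 genotypes compared, a replicate block and leaving out each library.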

Additional observations from a re-analysis of the deposited data

Results flagged for a closer look

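Values are log2 differences, GIGYF1/2-null minus 4EHP-null, of mRNA or footprints. C3orf62 mRNA differed by -0.16 ± 0.14: both 4EHP-null libraries lay above the WT mean and both GIGYF1/2-null libraries below it, and the difference was not tested. All knockout values lay between the WT values, 8.98 and 7.69 CPM, so their side of the WT mean says little. The other differences passed edgeR's quasi-likelihood test between the knockouts.

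Among the neighbours, mRNA of C15orf40 differed by 0.63, of SNHG21 by 0.72 and of FAM103A1 by 0.45, all 3 lower in 4EHP-null cells and near FSD2. Near C3orf62, LAMB2 differed by -0.59 in mRNA and -0.71 in footprints, USP19 by -0.44 and TCTA by 0.36 in mRNA. Near CTC1, LINC00324 differed by -1.22 in footprints. Its levels were 1840 and 805 CPM in 4EHP-null and 470 and 665 CPM in GIGYF1/2-null libraries, so the size leaned on 1 4EHP-null library.

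Among the telomere genes, mRNA of POLA1 differed by -0.77, POLA2 by -0.62, POT1 by -0.66, OBFC1 by 0.63 and TERF1 by 0.42. Footprints of POLA1 differed by -1.39 and of OBFC1 by 0.84. AHNAK differed by -0.44 in mRNA, and ANXA2 by -0.61 in mRNA and -0.71 in footprints. mRNA of MID2 differed by 0.96, TRIM9 by -0.66 and RYR2 by 1.23.

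The targeted genes differed as well, EIF4E2 by 1.46 in mRNA and 1.40 in footprints, and GIGYF1 by -0.69 and -2.25. GIGYF2 differed by 0.38 in mRNA, a higher level in the line labelled as lacking it. Footprints of SCARNA12 differed by -1.16, SCARNA9 by -0.95 and SCARNA9L by -0.96. Footprints of CHD4 and ELF1, genes that contain a scaRNA and a tRNA gene, differed by -1.91 and -1.30. CHD4 mRNA was also lower in GIGYF1/2-null cells than in WT, at -0.94.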

How the results depend on the processing

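The footprint changes of the 4 genes kept their sign in both knockouts under RLE scaling, either filter, DESeq2, limma-voom, only the 2 genotypes compared, the block and every fit without 1 library. The exception was FSD2 with the SCARNA15 counts subtracted, which gave -0.21 in 4EHP-null cells. Without 1 library the 4EHP-null footprint change ran from 2.15 to 2.47 for C3orf62, 2.28 to 2.72 for CTC1, 0.72 to 1.21 for FSD2 and -2.75 to -2.09 for AHNAK2. The GIGYF1/2-null footprint change ran from 1.05 to 1.36 for C3orf62, 0.88 to 1.12 for CTC1, 0.16 to 0.70 for FSD2 and -0.95 to -0.36 for AHNAK2, so the last pair depended on single libraries. Where a fit left 1 library in a group, that library was assumed to vary like the others.

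The counts of called genes moved more. Calls in 4EHP-null and GIGYF1/2-null cells numbered 2048 and 1868 in mRNA, 448 and 307 in footprints, and 12 and 6 in TE. Without 1 library they ran from 810 to 1125 and from 783 to 1819 in mRNA, from 118 to 132 and from 59 to 671 in footprints, and from 5 to 59 and from 1 to 4 in TE. The low and high ends for GIGYF1/2-null footprints came when WT replicate 2 and GIGYF1/2-null replicate 1, respectively, were left out. The 59 TE calls came without 4EHP-null RNA-seq replicate 1. With no filter, footprint calls numbered 1166 and 1135, and TE calls 10 in GIGYF1/2-null cells. With only the 2 genotypes compared, footprint calls numbered 769 and 174, and TE calls 23 in 4EHP-null cells. DESeq2 called 43 and 20 genes in TE. The cause of these differences was not tested.

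With the replicate number as a block, calls numbered 3571 and 3224 in mRNA, 1830 and 1747 in footprints, and 87 and 25 in TE. Samples with the same number deviated from their group means with correlations of 0.07 to 0.18 in RNA-seq and 0.15 to 0.31 in Ribo-seq over genes. All 3 Ribo-seq correlations were over 0.1, a hint from the data that same-numbered libraries deviated together. There were only 2 numbers and the labels name no shared batch, so the numbers were not taken to pair the samples. Under the block the footprint changes of OBFC1 in 4EHP-null cells (-0.74, adjusted p = 0.0188) and of AHNAK in GIGYF1/2-null cells (-0.64, adjusted p = 0.000298) passed edgeR's test, as did GIGYF2 in GIGYF1/2-null mRNA (0.28, adjusted p = 0.0152) and 4EHP-null footprints (0.36, adjusted p = 0.045).

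Among 20 in place of 10 neighbours, 8 fell and 0 rose near FSD2 in 4EHP-null mRNA, where 13.1% of all genes tested were called. Those 20 again include SCARNA15 and SNHG21, whose intervals overlap that of FSD2. Likeness by Pearson correlation kept MCMDC2 first for FSD2 (0.965), and put C20orf194 first for CTC1 (0.936) and LSM14B first for AHNAK2 (0.961). It also kept LOC100506127 first for C3orf62 (0.975), which the near-equal footprint counts of the pair lead to under either measure. The depth limits AHNAK2 most, with 12 and 20 footprint counts in 4EHP-null cells.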
